A study of Mus musculus with 14 samples.

Results

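Complement genes were followed in liver sinusoidal endothelial cells (LSECs), the fenestrated endothelial cells that line the capillaries of the liver, after an acute injury by carbon tetrachloride (CCl4), a solvent that hepatocytes convert into a toxic radical. The 9 genes, C3, C4b, C1ra, C1s1, Cfb, Cfp, C3ar1, C5ar1 and Cd55, were chosen by symbol, and all 9 were found among the 54524 genes of the count table. LSECs were sorted as CD32+, F4/80-, UV- and propidium iodide- cells, and in the study's methods also as CD45- cells, from the livers of male Balb/c mice. RNA was sequenced without culture for 4 healthy, non-treated mice and for mice collected 1 day (n = 2), 3 days (n = 4) and 7 days (n = 4) after a single intraperitoneal injection of CCl4 in mineral oil at 0.5 µL per gram of body weight. The labels give an age of 10 to 12 weeks for treated and healthy mice, and the study's methods a somewhat older range. The healthy mice received neither CCl4 nor oil, so that an effect of CCl4 and one of the injection or the oil cannot be told apart. All mice are males of 1 strain.

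Complement is a cascade of serum proteins that marks and lyses microbes and damaged cells. In the classical pathway the proteases C1r and C1s, held by C1q on its target, cleave C4 and C2, and in the alternative pathway factor B, with properdin as a stabiliser, forms the convertase that cleaves C3. The fragments released from C3 and C5 act as anaphylatoxins on their receptors on leukocytes, while membrane proteins such as CD55 take convertases apart on the body's own cells. The liver, and in it chiefly the hepatocyte, makes most of the complement proteins of the blood.

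Library totals over genes lay at 46401496 to 103912264 counts, and values are given as CPM, the counts of a gene relative to a fixed library total, with library sizes scaled by the trimmed mean of M-values. Genes were tested with edgeR's quasi-likelihood test on 26626 genes, and a gene was called changed at a Benjamini-Hochberg adjusted p under 0.05 (padj in the following). LSEC markers were abundant in every sample, with a summed level of 16313 to 19678 CPM over 10 markers in healthy LSECs and of 9796 to 15178 CPM after CCl4. Markers of other liver cells were present too and differed between samples of 1 group. The summed level of 10 hepatocyte markers was 175 to 320 CPM in healthy samples 1 to 3 and 7061 CPM in healthy sample 4, 30.4 to 118 CPM at day 1, 730 to 2702 CPM at day 3 and 719 to 5588 CPM at day 7, with day 7 sample 2 as the highest. Neutrophil and monocyte markers (10 genes) summed to 518 to 1400 CPM in healthy LSECs, 4357 to 8443 CPM at day 1, 1357 to 13197 CPM at day 3 and 4168 to 9625 CPM at day 7. No hepatocyte marker was under 3 counts in any sample. In bulk samples, fewer cells of a type and less RNA per cell cannot be told apart.

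All 9 complement genes passed the filter on low counts. Against healthy LSECs, 2 of 9 were called at day 1, where 4.06% of all tested genes were called, 3 of 9 at day 3, where 7.19% were called, and 2 of 9 at day 7, where 3.18% were called. C3ar1 was called higher on all 3 days, C1ra was called lower at days 1 and 3, and Cd55 was called lower at days 3 and 7. C3, C4b, C1s1, Cfb, Cfp and C5ar1 were not called on any day. The median log2 fold change of the 9 genes was -1.14 at day 1, -0.14 at day 3 and 0.47 at day 7, beside medians over all tested genes of -0.03, 0.18 and 0.02. The 3 comparisons share the 4 healthy mice. At day 1, 2 of the 9 genes were above all healthy samples in both samples and 3 were below (20.0% and 17.9% of all tested genes were so placed). At day 3, 1 was above and 2 were below (7.53% and 6.84%), and at day 7, 1 was above and 1 below (8.72% and 12.1%).

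**Figure D1:**
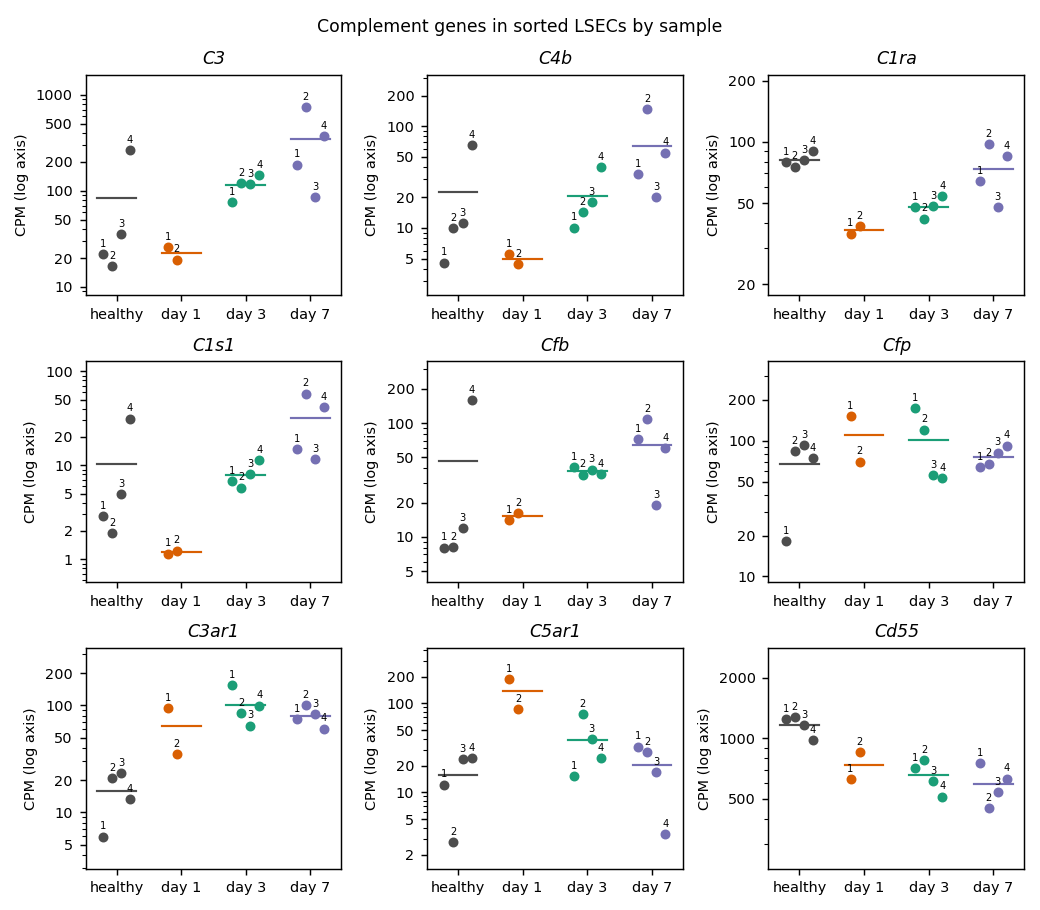
CPM (log axis) of the 9 complement genes in each LSEC sample; points are single mice with their replicate number and bars are group means. Healthy sample 4 stands above the other healthy samples in C3, C4b, C1s1 and Cfb, all samples after CCl4 lie above the healthy ones in C3ar1, and all lie below them in Cd55.

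**Figure D2:**
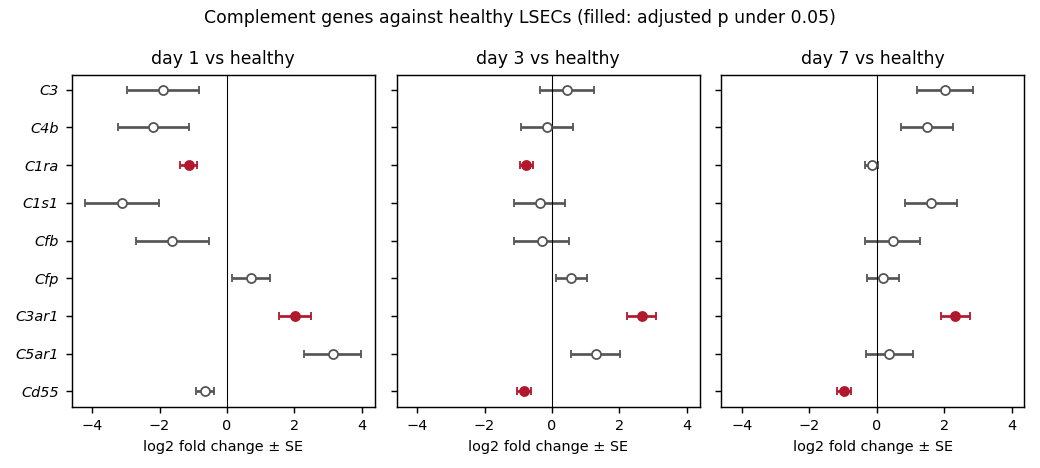
Log2 fold change with its standard error (SE) of the 9 genes at days 1, 3 and 7 against healthy LSECs, from edgeR's quasi-likelihood test. Filled points have an adjusted p under 0.05, which are C3ar1 on all 3 days, C1ra at days 1 and 3 and Cd55 at days 3 and 7.

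The 250 bases before the transcription start were taken from RefSeq (GRCm38.p6), which matched 7 of the 9 genes. They are shown for C3 and C1s1, whose levels stood far apart in healthy sample 4, and for C3ar1, called higher after CCl4. Cd55, called lower after CCl4, is shown too, and C1ra, also called lower, is not shown. Capitals mark matches, on either strand, to the C/EBP motif TTGCNNAA, the STAT motif TTCNNNGAA, the AP-1 motif TGANTCA, the TATA box TATAAA, the PU.1 motif GAGGAAGT or the CCAAT box CCAAT.
C3 (chr17:57228137-57228386, minus strand): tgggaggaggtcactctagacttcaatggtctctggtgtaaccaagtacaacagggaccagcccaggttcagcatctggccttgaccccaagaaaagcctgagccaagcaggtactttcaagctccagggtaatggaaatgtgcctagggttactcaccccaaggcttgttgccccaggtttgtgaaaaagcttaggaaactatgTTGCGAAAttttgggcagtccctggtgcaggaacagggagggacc
C1s1 (chr6:124542360-124542609, minus strand): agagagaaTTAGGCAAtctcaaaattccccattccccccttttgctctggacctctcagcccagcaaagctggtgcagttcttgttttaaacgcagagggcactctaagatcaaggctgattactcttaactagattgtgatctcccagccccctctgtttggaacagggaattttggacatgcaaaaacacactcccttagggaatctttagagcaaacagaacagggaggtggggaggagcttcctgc
C3ar1 (chr6:122856158-122856407, minus strand): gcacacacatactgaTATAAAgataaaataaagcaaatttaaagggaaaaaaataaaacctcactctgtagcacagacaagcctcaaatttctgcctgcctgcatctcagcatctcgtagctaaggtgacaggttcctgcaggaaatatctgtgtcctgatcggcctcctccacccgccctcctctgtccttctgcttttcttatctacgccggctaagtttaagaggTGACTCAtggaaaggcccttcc
Cd55 (chr1:130462745-130462994, minus strand): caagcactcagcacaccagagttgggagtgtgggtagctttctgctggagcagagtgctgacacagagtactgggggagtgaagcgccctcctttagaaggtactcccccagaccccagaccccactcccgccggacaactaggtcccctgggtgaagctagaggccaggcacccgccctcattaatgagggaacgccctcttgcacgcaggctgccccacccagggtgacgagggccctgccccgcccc
The C/EBP motif, read by factors that drive acute phase genes in hepatocytes, began 45 bases before the start of C3 and, on the other strand, 242 bases before that of C1s1. The AP-1 motif began 22 bases before the start of C3ar1, with a TATA box at 235 bases. No letters of these 6 motifs were found in this window of Cd55, Cfp or C1ra, and that of C5ar1 held only a CCAAT box, 158 bases before the start on the other strand. The RefSeq starts of C1ra and C5ar1 lie downstream of the GENCODE ones. Most of both windows, with this CCAAT box, thus lies within the gene positions given below. C1s1 has a second RefSeq start, whose window held none. Of all 32851 RefSeq windows of this length, 9.56% held the C/EBP motif, 7.02% the STAT motif, 6.75% the AP-1 motif, 12.4% the TATA box, 2.44% the PU.1 motif and 33.8% the CCAAT box. These matches describe the sequence and not binding.

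Among the classical pathway proteases, C1ra fell at days 1 and 3, and its day 7 samples overlapped the healthy ones. C1ra (chr6:124512405-124523443, GRCm38, plus strand) encodes the protease that activates C1s. It was measured at 79.5, 75.6, 81.7 and 90.2 CPM in healthy LSECs, at 35.5 and 38.5 CPM at day 1, at 47.9, 42.0, 48.4 and 54.3 CPM at day 3, and at 64.3, 97.3, 47.8 and 84.9 CPM at day 7. All samples of days 1 and 3 lay below all healthy samples, while those of day 7 spread over both levels. The log2 fold change was -1.14 (SE 0.25, padj = 0.0209) at day 1, -0.76 (SE 0.20, padj = 0.0338) at day 3 and -0.15 (SE 0.20, padj = 0.705) at day 7 in edgeR's test. The day 1 call was lost without healthy sample 4 (padj = 0.0649) or either day 1 sample (padj = 0.401 without the first and 0.172 without the second). That of day 3 was lost without any 1 of the healthy samples or without day 3 sample 1 or 2, with padj of 0.0651 to 0.0922. As each sample was left out, the value itself ranged from -1.23 to -1.12 (day 1) and from -0.91 to -0.68 (day 3). Healthy sample 4, with the most hepatocyte markers, was the highest healthy sample in C1ra too, but by little, at 90.2 CPM against 81.7 CPM for the next.

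C1rb, a paralog of C1ra nearby on the same strand, followed C1ra. Of the 100-base windows of the longest C1ra transcript 34.5% are found in C1rb, and C1rb was measured at 25.8 to 35.7% of the C1ra level in the 14 samples. C1rb was called lower at day 1 (log2 fold change -1.21, SE 0.26, padj = 0.0196), and had -0.68 (padj = 0.0617) at day 3 and -0.10 (padj = 0.816) at day 7. Over the 14 samples it was the gene most like C1ra, with a Pearson correlation of log2 CPM of 0.975, and reads shared by both genes may have been split between them.

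C1s1, the protease that cleaves C4 and C2 and the partner of C1ra, took another course. C1s1 (chr6:124530345-124542359, minus strand) lies next to C1ra and was measured at 2.85, 1.89, 4.94 and 31.4 CPM in healthy LSECs, at 1.15 and 1.23 CPM at day 1, at 6.77, 5.77, 7.97 and 11.3 CPM at day 3, and at 14.8, 57.9, 11.6 and 41.4 CPM at day 7. Healthy samples 1 to 3 were below all samples of days 3 and 7 and above both day 1 samples, whereas healthy sample 4 was higher than all of day 3 and within the range of day 7. The log2 fold changes were -3.11 (SE 1.10, padj = 0.142) at day 1, -0.37 (SE 0.76, padj = 0.819) at day 3 and 1.61 (SE 0.77, padj = 0.249) at day 7. Without healthy sample 4, day 7 was called with a log2 fold change of 3.31 (padj = 0.0150), and day 3 changed sign to 1.21 (padj = 0.221). The ratio of C1ra to C1s1 in CPM was 16.5 to 40.0 in healthy samples 1 to 3 and 2.87 in healthy sample 4. It was 30.9 and 31.2 at day 1, ranged from 4.80 to 7.29 in the day 3 samples and from 1.68 to 4.34 in those of day 7. The levels of these neighbouring genes thus did not move in a fixed proportion.

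C4b encodes C4, the substrate of C1s. C4b (chr17:34728380-34743882, minus strand) was measured at 4.57, 10.0, 11.2 and 64.9 CPM in healthy LSECs, at 5.56 and 4.39 CPM at day 1, at 10.1, 14.3, 18.0 and 39.8 CPM at day 3, and at 34.0, 146, 20.1 and 55.1 CPM at day 7. All day 7 samples were above healthy samples 1 to 3, and 1 of them was above healthy sample 4. The log2 fold changes were -2.19 (SE 1.05, padj = 0.301) at day 1, -0.14 (SE 0.77, padj = 0.936) at day 3 and 1.49 (SE 0.78, padj = 0.289) at day 7. Leaving out healthy sample 4 gave 2.92 at day 7 (padj = 0.0386), and leaving out day 7 sample 2 gave 0.68 (padj = 0.695). C4a, a paralog, shares 16.5% of the 100-base windows of the C4b transcript.

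C3 is the protein on which all pathways meet. C3 (chr17:57203970-57228136, minus strand) was measured at 21.9, 16.5, 35.3 and 266 CPM in healthy LSECs, at 26.0 and 19.2 CPM at day 1, at 76.2, 121, 118 and 146 CPM at day 3, and at 188, 736, 85.9 and 371 CPM at day 7. Day 1 was within the range of healthy samples 1 to 3, and every sample of days 3 and 7 was above them, yet healthy sample 4 was above all of day 3 and above 2 of the 4 day 7 samples. The log2 fold changes were -1.91 (SE 1.07, padj = 0.397) at day 1, 0.44 (SE 0.80, padj = 0.792) at day 3 and 2.02 (SE 0.83, padj = 0.184) at day 7. Without healthy sample 4 they were -0.14 (padj = 0.978), 2.14 (padj = 0.0579) and 3.84 (padj = 0.0126).

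In the alternative pathway, factor B resembled C3 and properdin did not. Cfb (chr17:34856374-34862518, minus strand), which encodes the protease of the alternative pathway convertase, was measured at 8.04, 8.18, 12.0 and 158 CPM in healthy LSECs, at 13.97 and 16.25 CPM at day 1, at 40.9, 35.3, 38.9 and 35.8 CPM at day 3, and at 72.2, 107, 18.9 and 59.8 CPM at day 7. All 10 samples after CCl4 were above healthy samples 1 to 3 and below healthy sample 4. The log2 fold changes were -1.62 (SE 1.09, padj = 0.498) at day 1, -0.30 (SE 0.82, padj = 0.868) at day 3 and 0.47 (SE 0.82, padj = 0.789) at day 7. Without healthy sample 4 they were 0.66 (padj = 0.632), 1.89 (padj = 0.0303) and 2.81 (padj = 0.0120), so that days 1 and 3 changed sign and days 3 and 7 were called. Cfb shares 79.5% of its exon length with the readthrough gene Gm20547, whose level was at most 0.208 CPM in any sample.

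Healthy sample 4 made up 78.3% of the summed healthy CPM of C3, 71.6% of that of C4b, 76.4% of that of C1s1 and 84.8% of that of Cfb, against 27.6% for C1ra. Per 100 CPM of summed hepatocyte markers, C3 was at 3.77 to 11.0 CPM in healthy LSECs, 16.3 and 85.4 CPM at day 1, 4.35 to 10.4 CPM at day 3 and 6.29 to 20.3 CPM at day 7. On this scale healthy LSECs overlapped days 3 and 7 and lay below both day 1 samples. The marker sums of day 1, at 30.4 and 118 CPM, were below those of all other samples, which raises any ratio to them. C3 itself was at 26.0 and 19.2 CPM at day 1, within the range of healthy samples 1 to 3. Cfb per 100 CPM of hepatocyte markers was 2.24 to 4.68 CPM in healthy LSECs, 13.8 and 45.9 CPM at day 1, 1.44 to 5.61 CPM at day 3 and 1.92 to 3.27 CPM at day 7, again with day 1 apart. In C4b and C1s1, day 1 overlapped healthy LSECs on this scale, at 3.72 and 18.3 CPM against 0.919 to 5.73 CPM in C4b and at 1.04 and 3.78 CPM against 0.445 to 1.54 CPM in C1s1. The part that hepatocyte RNA has in these levels was not tested. Stellate cell and fibroblast markers moved with days 3 and 7 as well: their sum over 10 genes was 146 to 268 CPM in healthy LSECs, 106 to 126 CPM at day 1, 699 to 2078 CPM at day 3 and 386 to 5919 CPM at day 7. Of these, 10 of 10 were called higher at day 3 and 9 of 10 at day 7, and their part was not tested either.

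**Figure D3:**
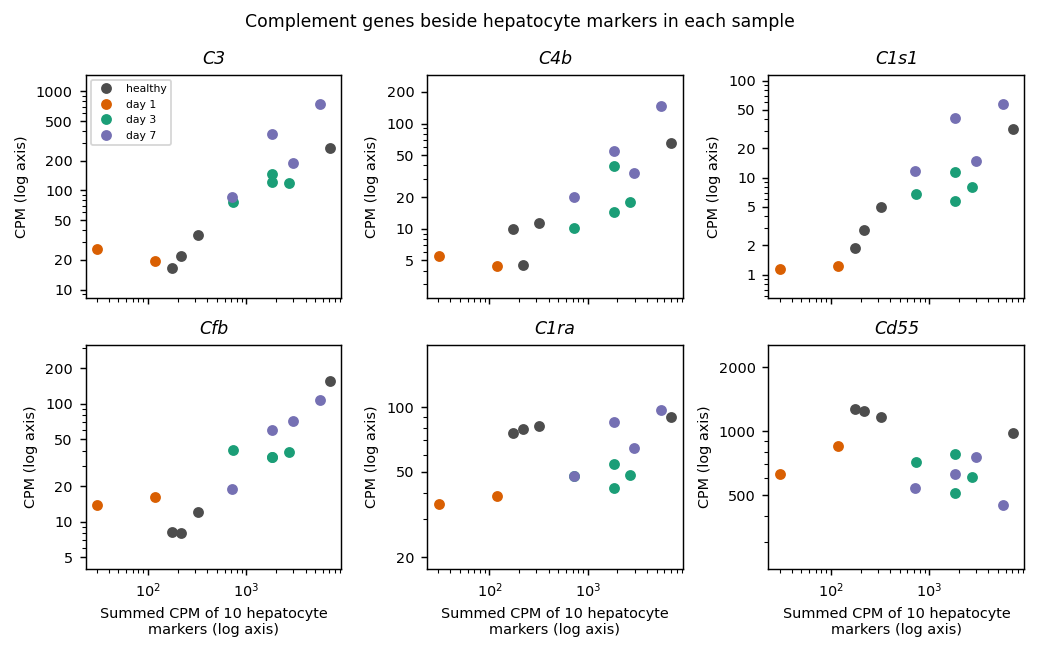
CPM of 6 complement genes against the summed CPM of 10 hepatocyte markers in the same sample, both on log axes, with 1 point per mouse coloured by group. C4b and Cfb were highest in the samples with the most hepatocyte markers (healthy sample 4 at 7061 CPM and day 7 sample 2 at 5588 CPM), and C3 and C1s1 in day 7 sample 2, followed by day 7 sample 4, whereas C1ra and Cd55 in healthy sample 4 stayed near the other healthy samples.

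Cfp encodes properdin, which myeloid cells make. Cfp (chrX:20925454-20931555, minus strand) was measured at 18.3, 83.6, 92.7 and 74.8 CPM in healthy LSECs, at 151 and 70.2 CPM at day 1, at 174, 120, 55.4 and 53.2 CPM at day 3, and at 64.1, 67.6, 81.7 and 91.8 CPM at day 7. The groups overlapped on every day, with healthy sample 1 as the lowest of all 14. The log2 fold changes were 0.71 (SE 0.56, padj = 0.586), 0.58 (SE 0.47, padj = 0.520) and 0.18 (SE 0.47, padj = 0.865) at days 1, 3 and 7. The sum of 8 Kupffer cell and macrophage markers was lowest in healthy sample 1 as well, at 149 CPM against 546 to 1465 CPM in the other 13 samples. Per 100 CPM of these markers, Cfp lay between 6.74 and 12.3 CPM in all 14 samples, a narrower range than that of its level. This held for the sum and not for each of its markers, which went both ways. Per 100 CPM of Cd68 alone, Cfp was 69.9 to 131 CPM in healthy LSECs and 18.6 to 44.5 CPM, lower in all samples, after CCl4. Per 100 CPM of Timd4 alone it was 201 to 229 CPM in healthy LSECs and 338 to 971 CPM, higher in all samples, after CCl4. Of 7 single markers with at least 100 counts in every sample, Cfp was above all healthy samples for 3, 2 and 1 at days 1, 3 and 7. It was below them for 2 on each day and overlapped them for the others.

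Of the anaphylatoxin receptors, C3ar1 was higher on all 3 days and C5ar1 was highest at day 1 without passing the test. C3ar1 (chr6:122847138-122856161, minus strand), the receptor of C3a, was measured at 5.95, 20.9, 23.3 and 13.3 CPM in healthy LSECs, at 94.2 and 35.0 CPM at day 1, at 155, 84.2, 64.5 and 99.1 CPM at day 3, and at 74.1, 101, 83.2 and 60.6 CPM at day 7. Each of the 10 samples after CCl4 was above each healthy sample. C3ar1 rose by a log2 fold change of 2.03 (SE 0.48, padj = 0.0308) at day 1, 2.67 (SE 0.43, padj = 0.00423) at day 3 and 2.33 (SE 0.43, padj = 0.0138) at day 7, or 4.07-fold, 6.35-fold and 5.02-fold. The calls of days 3 and 7 held without any single sample. That of day 1 was lost without healthy sample 1 (padj = 0.0506), healthy sample 4 (padj = 0.0808) or day 1 sample 1, where the value fell to 1.10 (padj = 0.721). The call of day 7 was lost when healthy sample 4 and day 7 sample 2 were left out together (padj = 0.0680).

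Markers of myeloid cells differed between the groups beside C3ar1. The Kupffer cell and macrophage sum overlapped between groups, at 149 to 1164 CPM in healthy LSECs, 619 and 1317 CPM at day 1, 546 to 1465 CPM at day 3 and 644 to 1145 CPM at day 7, and of the 8 markers 1, Cd68, was called higher, at days 3 and 7. The makeup of the sum differed between groups: Clec4f, a Kupffer cell lectin, made up 39.6 to 54.5% of it in healthy LSECs and 12.2 to 18.0% at day 3, and Cd68, a lysosomal protein of macrophages and other myeloid cells, 6.76 to 17.6% and 39.6 to 52.9%. Cd68 itself had log2 fold changes of 1.80 (SE 0.55, padj = 0.0908), 2.68 (SE 0.50, padj = 0.00757) and 1.99 (SE 0.48, padj = 0.0429) at days 1, 3 and 7, close in size to those of C3ar1. Per 100 CPM of these markers C3ar1 was 1.58 to 4.00 CPM in healthy LSECs, 5.65 and 7.15 CPM at day 1, 6.70 to 16.8 CPM at day 3 and 5.29 to 11.5 CPM at day 7, so that no sample after CCl4 overlapped the healthy ones. Set against single markers of the list with at least 100 counts in every sample (7 genes), C3ar1 was above all healthy samples for 5 of 7 at day 1, 6 of 7 at day 3 and 6 of 7 at day 7. Cd68 was the marker that C3ar1 kept closest to: per 100 CPM of Cd68, C3ar1 was 20.8 to 23.3 CPM in healthy LSECs. The day 1 samples, at 21.2 and 27.8 CPM, and those of day 3, with a range of 13.9 to 42.5 CPM, overlapped this. At day 7 it was 25.1 to 30.2 CPM, above all healthy samples. Per 100 CPM of neutrophil and monocyte markers, by contrast, C3ar1 was 1.04 to 2.57 CPM in healthy LSECs, 0.802 and 1.12 CPM at day 1, 1.05 to 7.31 CPM at day 3 and 0.901 to 1.45 CPM at day 7, and each day overlapped the healthy samples. Lyz2, the lysozyme gene of neutrophils, monocytes and macrophages, made up 75.0 to 92.8% of this sum in healthy LSECs, but 20.1 and 34.6% of it in the day 1 samples. Its share at day 3 was 63.5 to 93.3%. At day 7 its share was 94.0 to 98.0%, which makes the sum close to the level of 1 gene. Set against single markers of this list with at least 100 counts in every sample (6 genes), C3ar1 overlapped the healthy samples for all 6 at days 3 and 7. At day 1 it was below all healthy samples for 2 of 6, S100a8 and S100a9, and overlapped them for the other 4. Of the neutrophil and monocyte markers 3, 4 and 1 of 10 were called higher at days 1, 3 and 7. The part that myeloid cells have in the C3ar1 level was not tested.

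C5ar1 (chr7:16246743-16259540, minus strand), the receptor of C5a, was measured at 12.3, 2.77, 23.7 and 24.1 CPM in healthy LSECs, at 189 and 86.9 CPM at day 1, at 15.2, 75.1, 39.7 and 24.2 CPM at day 3, and at 32.7, 28.3, 16.9 and 3.38 CPM at day 7. Both day 1 samples were above all 12 others, and days 3 and 7 overlapped healthy LSECs. The log2 fold change was 3.13 (SE 0.84, padj = 0.0536) at day 1, just outside the threshold of edgeR's test, 1.30 (SE 0.72, padj = 0.318) at day 3 and 0.37 (SE 0.71, padj = 0.807) at day 7. The day 1 difference was called by DESeq2 (padj = 0.00457), by limma with voom weights (padj = 0.00631) and by edgeR after a stricter filter on low counts (padj = 0.0426). Of 9 alternative settings these were the only 3 that called it. It was not called when any 1 healthy sample was left out. Without each sample in turn, the value ranged from 2.43 to 3.55. Day 3 samples 1 and 2, with the most neutrophil and monocyte markers of their group (13197 and 8007 CPM), had C5ar1 at 15.2 and 75.1 CPM, the lowest and the highest of day 3. Per 100 CPM of these markers C5ar1 was 0.198 to 4.65 CPM in healthy LSECs and 2.00 and 2.24 CPM at day 1, which lay within the healthy range. Per 100 CPM of Kupffer cell and macrophage markers, by contrast, both day 1 samples (14.04 and 14.3 CPM) were above the healthy ones (0.272 to 8.24 CPM), and days 3 and 7 overlapped them. Set against single neutrophil and monocyte markers with at least 100 counts in every sample, C5ar1 at day 1 overlapped the healthy samples for 5 of 6. The exception was Lyz2: per 100 CPM of it, C5ar1 was 5.76 and 11.1 CPM at day 1, above the healthy samples at 0.231 to 5.01 CPM.

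**Figure D4:**
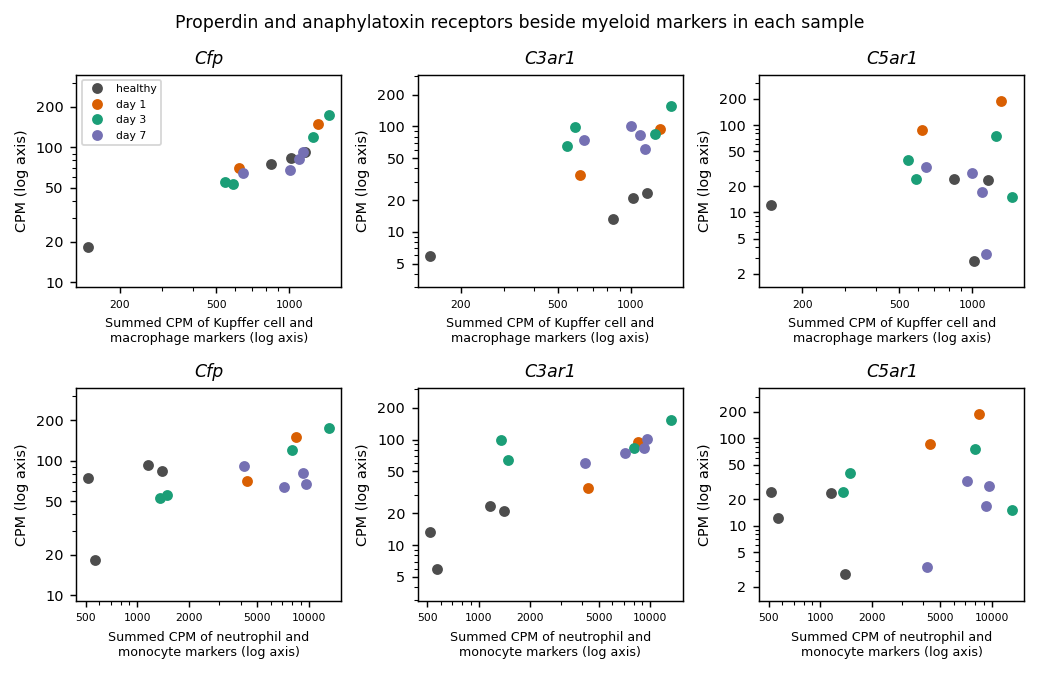
CPM of Cfp, C3ar1 and C5ar1 against the summed CPM of 8 Kupffer cell and macrophage markers (top) and of 10 neutrophil and monocyte markers (bottom) in the same sample, on log axes, with 1 point per mouse coloured by group. At a similar sum of macrophage markers, of which Clec4f made up 39.6 to 54.5% in healthy LSECs and 12.2 to 18.0% at day 3, C3ar1 was higher after CCl4, which did not hold against Cd68 alone at days 1 and 3. Cfp kept to this sum in all groups, and not to Cd68 or Timd4 alone, per which it was lower and higher after CCl4.

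Cd55 was the most abundant of the 9 genes per kilobase of exon in every group. It encodes decay-accelerating factor, the membrane protein that dissociates C3 convertases. Cd55 (chr1:130439027-130462744, minus strand) was measured at 1243, 1274, 1163 and 978 CPM in healthy LSECs, at 626 and 855 CPM at day 1, at 714, 778, 611 and 514 CPM at day 3, and at 753, 450, 539 and 631 CPM at day 7. All 10 samples after CCl4 were below all 4 healthy samples. The log2 fold change was -0.65 (SE 0.25, padj = 0.186) at day 1, -0.83 (SE 0.20, padj = 0.0260) at day 3 and -0.97 (SE 0.20, padj = 0.0233) at day 7, the last a 1.96-fold lower level. The call of day 3 was lost without healthy sample 1, 2 or 3 (padj = 0.0613 to 0.0748) and that of day 7 without any of these or without day 7 sample 2 or 3 (padj = 0.0660 to 0.0862). In all of these fits the value ranged from -1.03 to -0.79 (day 3) and from -1.11 to -0.86 (day 7). LSEC markers as a sum were lower after CCl4 too, although of the 10 LSEC markers 1 was called lower at day 1 and 1 at day 3, and 2 and 1 were called higher at days 1 and 3.

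Per kilobase of exon, the level of Cd55 in healthy LSECs was 240 ± 27.3 CPM (SD, n = 4), apart from that of Cfp at 38.8 ± 19.3 CPM. C1ra followed at 27.4 ± 2.07 CPM, then C3 at 16.5 ± 23.5 CPM, Cfb at 16.5 ± 26.3 CPM, C5ar1 at 6.11 ± 3.97 CPM, C4b at 3.98 ± 4.97 CPM, C3ar1 at 3.68 ± 1.82 CPM and C1s1 at 3.28 ± 4.52 CPM. Neighbours in this order below Cd55 overlapped in their samples. At day 1 the order was Cd55, Cfp, C5ar1, C3ar1, C1ra, Cfb, C3, C4b and C1s1, and C5ar1, at 33.8 and 73.5 CPM per kilobase, lay apart from C3ar1 at 8.12 and 21.9 CPM. At day 3 C3ar1 followed Cd55 and Cfp, at 23.4 ± 9.01 CPM per kilobase (n = 4), and C1s1 was last at 2.54 ± 0.771 CPM. At day 7 C3 was second, at 67.1 ± 55.6 CPM per kilobase (n = 4), with samples that overlapped those of Cd55 at 122 ± 26.7 CPM.

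Between days, none of the 9 genes was called by edgeR. From day 1 to day 3, where edgeR called 2.54% of all tested genes, 2 of the 9 had an unadjusted p under 0.05. DESeq2 called 1 of the 9, C1s1 (log2 fold change 2.76, padj = 0.0316). C3, C4b, C1ra, C1s1 and Cfb were higher in every day 3 sample than in both day 1 samples, and C5ar1 was lower. Of all tested genes 11.4% were so placed above and 10.4% below. From day 3 to day 7, where edgeR called 1.77% of all tested genes, 2 of the 9 had an unadjusted p under 0.05. Limma called 1 of the 9, C1ra (log2 fold change 0.69, padj = 0.0371). Shares of all tested genes at an unadjusted p under 0.05, or called by DESeq2 or limma between these days, are not given here. Of the 9, only C1s1 had all day 7 samples above those of day 3, with an edgeR log2 fold change of 1.98 (SE 0.78, padj = 0.207), and 3.76% of all tested genes lay above and 4.15% below in this way.

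The other genes of the complement system, 50 in all and 49 of them tested (Cfd, the gene of factor D, was under the filter), were called in small numbers. Against healthy LSECs 4 were called higher and 2 lower at day 1, 3 higher and 1 lower at day 3, and 4 higher and 1 lower at day 7, out of 49 genes on each day and beside 4.06%, 7.19% and 3.18% of all tested genes called in either direction. Their median log2 fold change was -1.21 at day 1, -0.52 at day 3 and 0.17 at day 7, beside the medians over all genes given above.

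The C1q subunits, which hold C1r and C1s, were not called on any day. C1qa was at 53.4 to 274 CPM in healthy LSECs, 140 and 330 CPM at day 1, 79.3 to 102 CPM at day 3 and 63.5 to 274 CPM at day 7. C1qb and C1qc had log2 fold changes of 0.62 and 0.63 at day 1, 0.18 and 0.23 at day 3 and -0.03 and 0.08 at day 7, with padj of 0.651 to 0.989. All 3 were lowest among healthy LSECs in sample 1, the sample with the fewest macrophage markers and the least Cfp. Over the 14 samples C1qc was among the genes most like Cfp (Pearson correlation of log2 CPM 0.952).

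In the lectin pathway, which starts from sugars on a surface, the protease gene Masp1 fell at day 1, from 346, 350, 415 and 416 CPM in healthy LSECs to 101 and 132 CPM (log2 fold change -1.71, SE 0.43, padj = 0.0403). It was at 215 to 726 CPM at day 3 and 277 to 424 CPM at day 7, overlapping the healthy samples. The collectin genes Colec10 and Colec11, whose proteins bind sugars and carry MASP proteases, were higher later. Colec10 was at 2.23 to 4.65 CPM in healthy LSECs, 0.825 and 0.892 CPM at day 1, 7.45 to 17.0 CPM at day 3 and 4.54 to 38.6 CPM at day 7, and was called higher at day 3 (log2 fold change 1.83, SE 0.51, padj = 0.0472) and at day 7 (3.05, SE 0.54, padj = 0.0112). Colec11 was at 9.09 to 17.3 CPM in healthy LSECs, 1.52 and 1.64 CPM at day 1, 12.5 to 54.3 CPM at day 3 and 12.3 to 85.2 CPM at day 7, and was called higher at day 7 (2.29, SE 0.56, padj = 0.0438). In both genes day 7 sample 1 was the lowest of day 7 and overlapped the healthy samples. It had the fewest stellate cell and fibroblast markers of day 7 (386 CPM), but other samples did not follow these markers. Day 7 sample 2, with the most (5919 CPM), had Colec10 at 35.7 CPM and Colec11 at 80.1 CPM. Both were higher in day 7 sample 4 (38.6 and 85.2 CPM), with 2424 CPM of markers. Day 3 sample 4, with the most markers of day 3 (2078 CPM), had Colec11 at 14.9 CPM, within the healthy range. Day 3 sample 1, with 1724 CPM, had it at 54.3 CPM. The part of these cells was not tested.

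Of the membrane regulators, 9 with Cd55, none was called higher on any day and 2 were called lower at day 3 and 2 at day 7 (7.19% and 3.18% of all tested genes were called). Beside Cd55 these were Susd4, a complement regulator, at day 3 (7.07 to 13.5 CPM in healthy LSECs against at most 3.99 CPM, log2 fold change -1.75, SE 0.41, padj = 0.0213) and Cd59a, which blocks the membrane attack complex, at day 7 (291 to 435 CPM against 81.7 to 174 CPM, -1.43, SE 0.35, padj = 0.0421). Cd59a at day 3 had a log2 fold change of -1.19 (padj = 0.0547), with all 4 samples below the healthy ones. The median log2 fold change of the 9 membrane regulators was -1.04, -0.83 and -0.67 at days 1, 3 and 7.

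Of the 9 receptors, C3ar1 and C5ar1 included, 5 were called higher at day 1 and 3 each at days 3 and 7, and none was called lower (4.06%, 7.19% and 3.18% of all tested genes were called at days 1, 3 and 7). Cd93, an endothelial and myeloid membrane protein first described as a C1q receptor, was at 198 to 275 CPM in healthy LSECs, 1820 and 1597 CPM at day 1, 345 to 413 CPM at day 3 and 196 to 316 CPM at day 7. It was 7.36-fold higher at day 1 (log2 fold change 2.88, SE 0.21, padj = 2.01e-05) and 1.66-fold higher at day 3 (0.73, SE 0.18, padj = 0.0278), and at day 7 its log2 fold change was 0.21 (padj = 0.538). C1qbp, which binds the globular heads of C1q and resides mainly in mitochondria, was at 61.0 to 68.9 CPM in healthy LSECs, 165 and 112 CPM at day 1, 86.7 to 136 CPM at day 3 and 41.2 to 58.9 CPM at day 7, and was called higher at days 1 (1.10, SE 0.22, padj = 0.0116) and 3 (0.87, SE 0.18, padj = 0.0137).

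The leukocyte integrins that serve as complement receptors were higher as well. Itgam, the alpha chain of complement receptor 3, rose at day 1 (log2 fold change 3.00, SE 0.73, padj = 0.0351), from 1.34 to 8.95 CPM to 27.7 and 56.9 CPM. Itgb2, the beta chain shared with complement receptor 4, was at 15.1 to 47.8 CPM in healthy LSECs and was called higher at day 1 (100 and 153 CPM, padj = 0.0453) and day 7 (91.9 to 168 CPM, padj = 0.0356). Itgax, the alpha chain of complement receptor 4, was called higher at day 7 (10.7 to 40.5 CPM against 1.48 to 5.64 CPM, log2 fold change 2.93, SE 0.59, padj = 0.0201). These integrins are carried by myeloid cells, and the part of these cells, whose markers are given above beside C3ar1, was not tested. Itgam shares 68.7% of its exon length with the overlapping gene Gm49368 on the same strand.

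Few of these calls outside the 9 genes held without each single sample. That of Cd93 at day 1 held in all 6 fits (largest padj = 0.000356). At day 1, the call of C1qbp was lost without day 1 sample 1 (padj = 0.435), that of C1rb without either day 1 sample, that of Itgam without healthy sample 1 or 4 or either day 1 sample, that of Itgb2 without any sample but healthy sample 3, and that of Masp1 without any of the 6 samples. At day 3, the call of Susd4 was lost without healthy sample 2 or 3, that of C1qbp without healthy sample 4 or day 3 sample 1 or 3, that of Cd93 without healthy sample 2, 3 or 4 or day 3 sample 1 or 3, and that of Colec10 without any sample but day 3 sample 4. At day 7, the call of Colec10 was lost without healthy sample 1 (padj = 0.0517), that of Itgax without healthy sample 1 or day 7 sample 2 or 3, those of Cd59a and Colec11 without healthy sample 1, 2 or 3 or day 7 sample 2, 3 or 4, and that of Itgb2 without any healthy sample or day 7 sample 2 or 3. The padj of the lost calls was at most 0.554 at day 1 (Masp1), 0.131 at day 3 (Colec10) and 0.143 at day 7 (Cd59a).

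Of the 7 tested genes of the terminal pathway and the 11 soluble regulators, edgeR called 0 on each day. At an unadjusted p under 0.05 these were 13 of 18 at day 1, 2 at day 3 and 1 at day 7, while DESeq2 called 12, 1 and 1 and limma 0, 1 and 6. Over all genes, DESeq2 and limma called more than edgeR on each of these days, with the numbers given in the closing section. No share of all tested genes at an unadjusted p under 0.05 is given here, so these counts cannot be set against all genes. At day 1, 6 of the 7 and 8 of the 11 were below all healthy samples, with median log2 fold changes of -3.94 and -3.92, beside 17.9% of all tested genes that were separated in this direction. Of these 18 genes 17, like C3 and Cfb, were highest among healthy LSECs in sample 4. The share of all tested genes that were so is not given here.

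**Figure D5:**
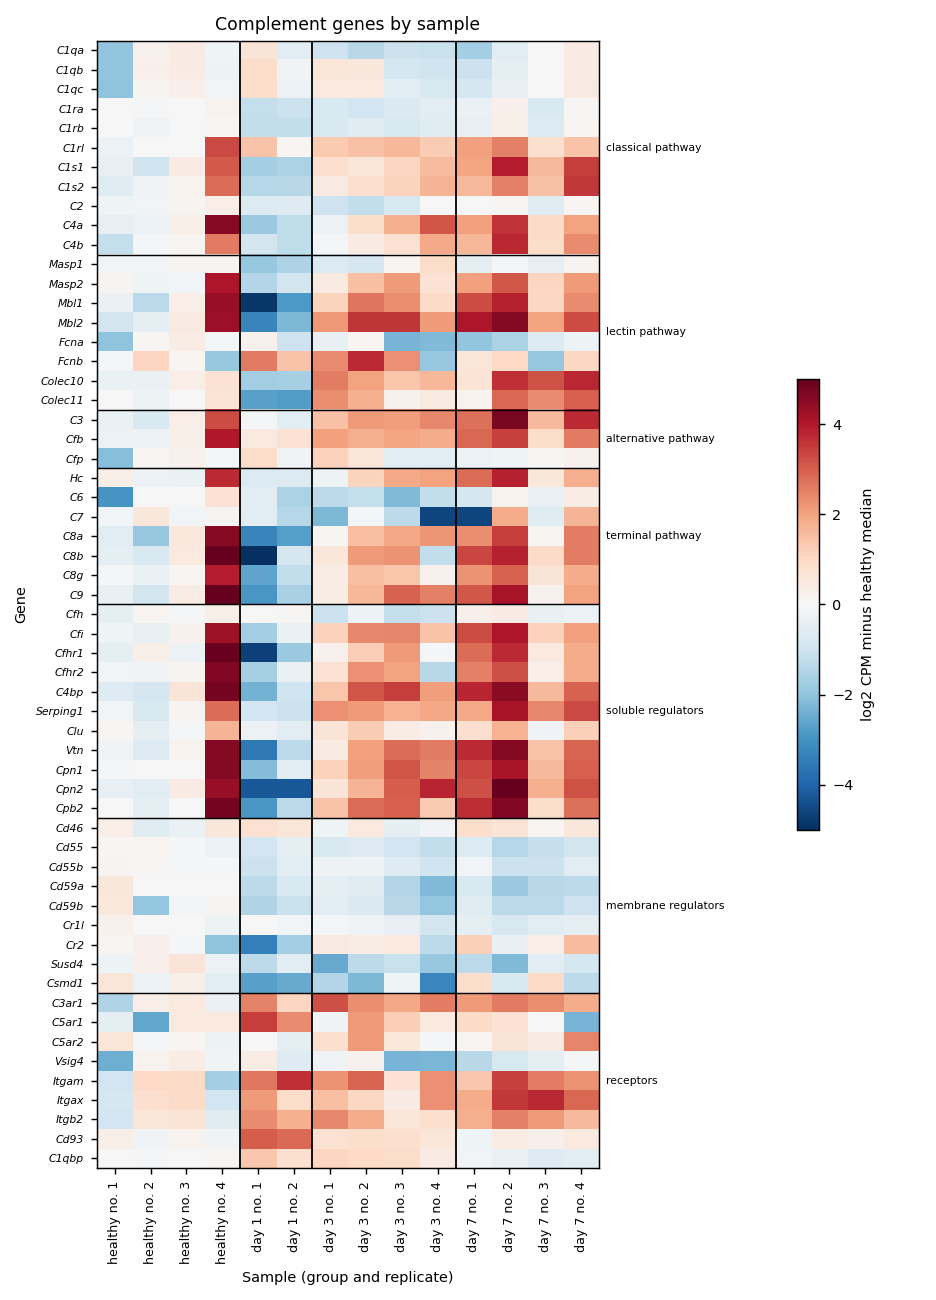
Log2 CPM of the 58 tested complement genes in each sample relative to the median of the healthy samples, with genes grouped by role and samples in columns (scale from -5 to 5). Healthy sample 4 stood out in soluble components that hepatocytes make, and not in membrane regulators, while receptors such as C3ar1, Itgb2 and, at day 1, Cd93 were higher after CCl4.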

How the data were processed

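Bulk RNA-seq of FACS-sorted LSECs was available for 14 mice in 4 groups, taken from the labels. The authors prepared libraries with the SMARTseq v4 kit, trimmed the reads, mapped them with STAR to GRCm38, assembled them with StringTie and deposited raw counts per Ensembl gene. The use of strand, the annotation release and the step from StringTie to whole counts are not given in the sources used here, so counts of overlapping genes and paralogs are uncertain. The authors left out 2 further day 1 samples for RNA quality. Of 54524 genes 54495 were named by GENCODE vM21, which also gave positions and exon lengths.

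Counts were filtered with edgeR's filterByExpr by group (minimum count 10, minimum total count 15), scaled with TMM and tested with the quasi-likelihood test of edgeR 4.0.16 (R 4.3.3) in 1 model of the 4 group means, with Benjamini-Hochberg adjustment over 26626 genes. The SE was derived from the log2 fold change and the F statistic. A level under 3 counts was taken as undetected, which covers counting error only. Alternatives were the tests of DESeq2 1.42.0 and limma 3.58.1 (voom, samples weighted by quality), scaling by RLE or by library size alone, a stricter and no filter, fits of 2 groups alone, a block for the replicate number, and each sample left out. The edgeR, DESeq2 and limma steps were tested on simulated counts.

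The 9 genes, the other complement genes, their roles and the marker lists were chosen with earlier results of these data known. The 9 genes are always described. Of the other complement genes, those called on any day against healthy LSECs and the C1q subunits were named, and those called only between days follow in the closing section. For each of the 9 genes the 3 genes of highest Pearson correlation of log2 CPM (prior count 2) may be named.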

Additional observations from a re-analysis of the deposited data

Results flagged for a closer look

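Healthy sample 4 stood far above the other 3 healthy samples in 4 of the 9 genes: C3 at 266 CPM, C4b at 64.9 CPM, C1s1 at 31.4 CPM and Cfb at 158 CPM. In each the gap to the next sample, as a share of the range of the group, was above the critical value of Dixon's test for 4 samples (0.829), at 0.925, 0.890, 0.897 and 0.973. Chance marks about 1 in 20 groups, and 27 groups were examined. The same sample had the highest sum of hepatocyte markers (7061 CPM), and the part of that in these values was not tested.

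Between days 1 and 3 of the injury, Masp1 (log2 fold change 1.77, SE 0.43, padj = 0.0475), Colec11 (4.24, SE 0.83, padj = 0.0188) and Colec10 (3.71, SE 0.75, padj = 0.0211) were higher at day 3, and Cd93 was lower (-2.15, SE 0.21, padj = 0.000724), in edgeR's test of the difference itself. The calls of Masp1, Colec10 and Colec11 were lost without either day 1 sample and that of Masp1 also without day 3 sample 3. Between days 3 and 7, C1qbp fell (log2 fold change -1.28, SE 0.19, padj = 0.00727), a call lost without day 7 sample 3 or 4.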

How the results depend on the processing

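The number of the 9 genes called at day 1 (2) was 4 with DESeq2, 4 with limma, 1 with only the 2 groups compared, 0 without healthy sample 4 and day 7 sample 2 (left out together after seeing the data, for their hepatocyte markers) and 0 to 2 without each sample in turn. At day 3 (3) it was 1 to 3 without each sample. At day 7 (2) it was 6 with limma and 1 to 6 without each sample, the 6 without healthy sample 4. From day 1 to day 3 (0) it was 1 with DESeq2, from day 3 to day 7 (0) 1 with limma, and 0 without each sample. The other complement genes called at day 1 (6) were 27 with DESeq2, 13 with limma and 1 to 5 without each sample. At day 3 (4) they were 9 with DESeq2, 14 with limma, 7 with a stricter filter on low counts and 1 to 8 without each sample. At day 7 (5) they were 8 with DESeq2, 20 with limma, 3 with no filter, 8 with only the 2 groups compared, 3 without the 2 hepatocyte-rich samples and 0 to 18 without each sample. From day 1 to day 3 (4) they were 18 with DESeq2, 7 with limma and 1 to 4 without each sample. From day 3 to day 7 (1) they were 3 with DESeq2, 4 with limma, 0 with only the 2 groups compared, 0 without the 2 hepatocyte-rich samples and 0 to 3 without each sample. The cause of these differences was not tested.

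The replicate numbers do not pair the mice, which are different animals, and same-numbered samples did not deviate together (correlations -0.232 to 0.0962). With the number as a replicate block, 0 of the 9 genes were called at day 1 and 1 at day 7, and of the other complement genes 3 at day 1, 1 at day 7 and 1 from day 1 to day 3. The block turned the log2 fold change at day 3 to 0.29 in C4b, 0.33 in C1s1 and 0.80 in Cfb.

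Limma reversed Cfb at day 1 (0.21) and, at day 3, C4b (0.23), C1s1 (0.77) and Cfb (1.53). Without healthy sample 4, Cfb at day 1 became 0.66 and at day 3 C4b became 1.17, C1s1 1.21 and Cfb 1.89, and the same values to 2 decimals followed when day 7 sample 2 was left out with it. Without day 3 samples 1 and 2, chosen after seeing the data for their neutrophil markers, C4b at day 3 became 0.28 and Cfp -0.35. Without each sample in turn, the range was -1.98 to 0.66 for Cfb at day 1, -0.79 to 1.17 for C4b, -0.72 to 1.21 for C1s1 and -0.66 to 1.89 for Cfb at day 3, and -0.31 to 0.041 for C1ra and -0.13 to 0.37 for Cfp at day 7. C1ra at day 3 was not called with library size only (padj = 0.0791).

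Over all genes, 1080 calls at day 1 became 2720 with DESeq2, 4308 with limma, 2327 with only the 2 groups compared, 594 with the replicate block and 649 without the hepatocyte-rich samples. At day 3, 1915 became 3601 with DESeq2, 7265 with limma, 1108 with only the 2 groups and 1079 without the hepatocyte-rich samples. At day 7, 846 became 2596, 7047, 3156 and 290, and 435 with the block. The 2 samples of day 1 limit what could be called on that day.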

Other observations

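Over the 14 samples, which share groups and library preparation, the genes most like each complement gene in log2 CPM were given as a description. C3 was most like Cp, the gene of ceruloplasmin (Pearson correlation 0.977), and C1s1 was most like its paralog C1s2 (0.967). Cfb was most like Apol9a (0.977), C4b like Pacsin3 (0.954) with C1s1 next (0.945), and C3ar1 like Tbxas1, the gene of thromboxane synthase (0.982), with Lgals3, the gene of galectin 3, next (0.977). Cd55 was most like Ggps1 (0.954), and C5ar1 had the weakest likeness, with Eif5al3-ps (0.849).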
